A study of Mus musculus with 7 samples.

Results

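The 10 genes described here are negative regulators and transcriptional outputs of the Ras-ERK cascade: the Sprouty genes Spry1, Spry2 and Spry4, the Sprouty-related genes Spred1 and Spred2, the dual specificity phosphatase genes Dusp4 and Dusp6, and the PEA3-type ETS factor genes Etv1, Etv4 and Etv5. They were chosen by family and name, and all 10 were found among the 37620 genes of each count table and passed the filter on low counts. RNA was sequenced from 7 mouse brain tumours, which grew in nude mice after implantation of glioblastoma stem-like cells that were made from subventricular zone neural stem cells and had been cultured for 10 to 15 passages. The 4 GSC1 tumours came from the line labelled lgT/Ras. The 3 GSC2 tumours came from the line labelled shp53, Nf1-/-, CDK4. Each set of changes existed in 1 line, so a difference between GSC1 and GSC2 is one between lines, and the changes within a label cannot be told apart. The nude hosts keep their own brain, vascular and myeloid cells, whose RNA is in these libraries too.

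In the Ras-ERK cascade, activated receptor tyrosine kinases load Ras with GTP, and RAF, MEK and ERK kinases then act in sequence. ERK activity induces genes of its own inhibitors, so that their transcripts are widely used as a readout of the pathway. Sprouty proteins inhibit signals from receptors to ERK, Spred proteins bring neurofibromin, the GTPase activator encoded by Nf1, to the membrane, DUSP4 and DUSP6 remove phosphates from ERK in the nucleus and the cytoplasm, and ETV1, ETV4 and ETV5 are ETS factors induced downstream of FGF receptors. The label of GSC1 names Ras and that of GSC2 the loss of a Ras inhibitor, so both lines carry a change near the top of this cascade.

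Spry1, Spry2 and Etv5 were the members whose values did not overlap between the lines, and the bases before their transcription starts are shown here for that reason. The windows are RefSeq's for GRCm38.p6, a later build than the mm9 named in the submitters' processing notes, were matched by symbol and hold the 250 bases before the start, written 5′ to 3′ on the strand of the gene. Capitals mark GGAA, the core letters of ETS sites, or TTCC, the same letters on the other strand. The Spry1 window is chr3:37639697-37639946 on the plus strand, the Spry2 window chr14:105896820-105897069 on the minus strand and the Etv5 window chr16:22439571-22439820 on the minus strand.
Spry1: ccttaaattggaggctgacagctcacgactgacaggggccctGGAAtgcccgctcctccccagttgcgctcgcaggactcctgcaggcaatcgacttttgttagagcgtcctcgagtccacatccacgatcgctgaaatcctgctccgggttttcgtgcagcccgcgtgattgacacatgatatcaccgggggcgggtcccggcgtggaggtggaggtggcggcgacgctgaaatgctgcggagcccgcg
Spry2: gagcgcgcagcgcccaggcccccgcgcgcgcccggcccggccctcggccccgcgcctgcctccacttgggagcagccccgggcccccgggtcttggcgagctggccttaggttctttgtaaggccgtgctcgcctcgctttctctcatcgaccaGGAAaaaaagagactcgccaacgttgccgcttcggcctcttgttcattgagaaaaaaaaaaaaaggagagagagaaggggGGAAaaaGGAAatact
Etv5: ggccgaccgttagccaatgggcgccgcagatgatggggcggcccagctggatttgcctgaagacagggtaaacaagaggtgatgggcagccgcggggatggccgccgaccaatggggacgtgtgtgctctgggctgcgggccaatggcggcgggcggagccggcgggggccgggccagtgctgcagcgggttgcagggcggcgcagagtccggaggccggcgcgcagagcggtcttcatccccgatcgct
GGAA occurred 1 time in the Spry1 window, 3 times in the Spry2 window and 0 times in this Etv5 window. The other Etv5 window in the table, not printed, held 4. At least 1 match was present in 93.4% of the 32851 windows in the table. The longer letters CCGGAA (ETS), TGANTCA (AP-1) and TGACGTCA (CRE) were searched on both strands. They matched in 0 of the 9 member windows searched, which came from 7 of the members, against 12%, 6.75% and 1.55% of all windows. No window of Spry4, Dusp4 or Etv4 was searched. For members the windows of 1 chromosome were left out, but not for these shares. These are descriptions of letters in a short window. GGAA was searched after the longer letters had given no match, and it lies within CCGGAA.

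The libraries held 21635117 to 32643408 reads on genes in GSC1 and 18643155 to 27020814 in GSC2, and the lowest count of any member was 482 reads (Spry1 in GSC1 replicate 4). Levels are given as CPM, in which each library's depth was adjusted with TMM factors, and no difference between the lines passed for any of 16068 genes (edgeR quasi-likelihood test, Benjamini-Hochberg adjusted p under 0.05; 677 genes at an unadjusted p under 0.05, 192 genes with DESeq2, 1 with limma-voom). Of the genes the labels point to, Trp53, Cdk4, Hras and Nras did not pass the test (log2 fold change 0.11 for Trp53, -0.18 for Cdk4, 0.30 for Hras, -0.04 for Nras). Nf1 had 96.5, 163, 113 and 89.7 CPM in the GSC1 tumours (replicates 1 to 4), against 137, 142 and 70.3 CPM in the GSC2 tumours (replicates 1 to 3), and a total over a gene does not show a deleted part of it. Markers of neural stem and tumour cells (6 of 6 detected) summed to 1975 to 4669 CPM in GSC1 tumours, against 3079 to 3723 CPM in GSC2 tumours. Most of each sum was Vim alone, at 1620 to 3626 CPM in GSC1 tumours and 2417 to 3315 CPM in GSC2 tumours. Normal brain RNA differed between tumours of 1 line. The brain score, the mean log2 CPM of 10 neuron and 10 mature oligodendrocyte markers, was 6.31, 4.92, 8.68 and 8.14 in the GSC1 tumours (replicates 1 to 4), against 6.44, 7.95 and 7.94 in the GSC2 tumours (replicates 1 to 3). GSC1 replicates 3 and 4 and GSC2 replicate 3 also had low counts of long transcripts: on the log2 scale, genes of 8000 bases or more stood relative to genes of 2000 bases or fewer at a median of -0.40, -0.36 and -0.70 in these 3 and 0.02 to 0.64 in the other 4. The members' folds are given with and without them where they moved most. Leaving them out also removed GSC1 replicates 3 and 4, which had the highest brain scores (8.68 and 8.14). Scores of 6.31 and 4.92 (GSC1) and 6.44 and 7.95 (GSC2) were left. With all tumours and a loess offset on transcript length, log2 fold changes were -1.84 for Spry1, -0.58 for Spry4 and -0.47 for Dusp4. For Dusp6, Etv5, Spred2, Spred1 and Etv4 they were -0.41, -1.005, -0.20, -0.17 and 0.07. Which of length and brain content moved the folds was not tested.

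Per kilobase of transcript, Dusp6 was the most abundant of the 10 members in 7 of 7 tumours. Its level was 128 ± 82.7 RPKM in GSC1 (SD, n = 4) and 174 ± 50.4 RPKM in GSC2 (SD, n = 3), where RPKM is CPM per kilobase of the longest annotated transcript. Etv1 was the lowest by mean, at 12.5 ± 3.31 RPKM in GSC1 and 20.4 ± 5.09 RPKM in GSC2. Between them, neighbours in the order were mostly not separated: Spry2 exceeded Spred1 in 3 of 7 tumours, Spred1 exceeded Etv5 in 4 of 7, Spry1 exceeded Dusp4 in 4 of 7 and Dusp4 exceeded Etv4 in 3 of 7. Etv5 exceeded Spry1 in 7 of 7.

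**Figure D1:**
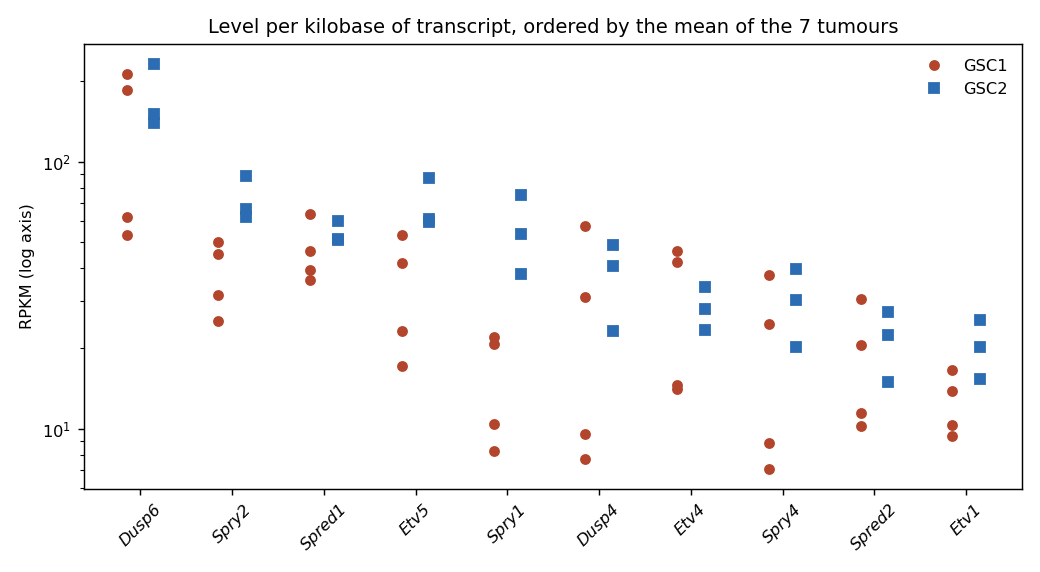
Level of each gene in RPKM on a log axis, 1 point per tumour, GSC1 as circles and GSC2 as squares, ordered by the mean over the 7 tumours. Dusp6 stands above the other 9 genes in every tumour, and the GSC1 points spread more widely than the GSC2 points for most genes.

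The place of Spry1 in this order differed between the lines. By mean RPKM, Spry1 was at rank 9 of 10 in GSC1 (15.4 ± 7.04 RPKM, SD, n = 4) and at rank 4 of 10 in GSC2 (55.5 ± 18.5 RPKM, SD, n = 3). Spred1 was at rank 2 in GSC1 (46.3 ± 12.3 RPKM) and rank 5 in GSC2 (54.1 ± 4.98 RPKM), with levels that overlapped between the lines. Etv4 was at rank 5 in GSC1 (29.2 ± 17.3 RPKM) and rank 8 in GSC2 (28.5 ± 5.35 RPKM). Dusp6, Dusp4, Spry4 and Etv1 kept their ranks of 1, 6, 7 and 10 in both lines. Ranks of means are given as a description, with no test.

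Among the Sprouty genes, Spry1 differed most between the lines. Spry1 had 61.0, 57.6, 28.8 and 22.9 CPM in the GSC1 tumours (replicates 1 to 4), against 208, 148 and 106 CPM in the GSC2 tumours (replicates 1 to 3). The highest GSC1 tumour lay well under the lowest GSC2 tumour, and the log2 fold change of GSC1 over GSC2 was -1.85 (SE 0.42), a level 3.61-fold higher in GSC2. That difference did not pass over all genes in edgeR's quasi-likelihood test (unadjusted p = 0.00284, adjusted p = 0.563), whereas DESeq2 gave an adjusted p of 0.0114 and limma-voom one of 0.504. Without the 3 libraries with low counts of long transcripts the fold was -1.58 (SE 0.25, edgeR adjusted p = 0.0814).

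Spry2, which like Spry1 is induced by growth factors and inhibits their receptors' signals to Ras, had 94.2, 104, 52.8 and 66.1 CPM in the GSC1 tumours, against 185, 139 and 129 CPM in the GSC2 tumours. All 4 GSC1 tumours were under all 3 GSC2 tumours, with a log2 fold change of -0.93 (SE 0.29, edgeR unadjusted p = 0.0143, adjusted p = 0.955). Spry4, another member of the family, had 117, 179.7, 33.7 and 41.9 CPM in the GSC1 tumours, against 188, 144 and 96.5 CPM in the GSC2 tumours. Here the lines overlapped: GSC1 replicates 1 and 2 lay within the GSC2 range and replicates 3 and 4 far below it (log2 fold change -0.62, SE 0.60, edgeR adjusted p = 1.00). Without the 3 libraries named above the Spry4 fold was -0.16 (SE 0.27).

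Spred1 and Spred2, whose proteins recruit neurofibromin, differed little beside their spread. Spred1 had 279, 383, 236 and 218 CPM in the GSC1 tumours, against 360.0, 309.9 and 307 CPM in the GSC2 tumours. Its highest tumour was GSC1 replicate 2, and its fold was the smallest of the 9 that were negative (log2 fold change -0.22, SE 0.25, or -0.015 without the 3 libraries, SE 0.24). Spred2 had 91.3, 136, 45.5 and 51.1 CPM in the GSC1 tumours, against 122, 99.6 and 66.7 CPM in the GSC2 tumours. The GSC1 values spanned the whole GSC2 range (log2 fold change -0.25, SE 0.43), and the sign turned to 0.038 (SE 0.26) without the 3 libraries. Neither gene passed edgeR's test, with adjusted p = 1.00 for both.

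The phosphatase genes differed more among GSC1 tumours than between the lines. Dusp4, whose protein acts on ERK in the nucleus, had 85.0, 157, 21.0 and 26.1 CPM in the GSC1 tumours, against 133, 111 and 63.5 CPM in the GSC2 tumours. The highest GSC1 tumour had 7.48 times the level of the lowest, against 2.10 times among GSC2 tumours, and GSC1 values lay both above and below all of those in GSC2 (log2 fold change -0.50, SE 0.71). The Dusp4 fold was -0.014 (SE 0.31) without the 3 libraries and -1.22 (SE 0.59) without GSC1 replicate 2. Dusp6, the cytoplasmic ERK phosphatase, had 519.9, 595, 148 and 173 CPM in the GSC1 tumours, against 648, 422 and 389.8 CPM in the GSC2 tumours. GSC1 replicates 1 and 2 lay inside the GSC2 range and replicates 3 and 4 below it (log2 fold change -0.44, SE 0.54), and without the 3 libraries the fold was 0.067 (SE 0.27). Neither passed edgeR's test (adjusted p = 1.00 for both).

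**Figure D2:**
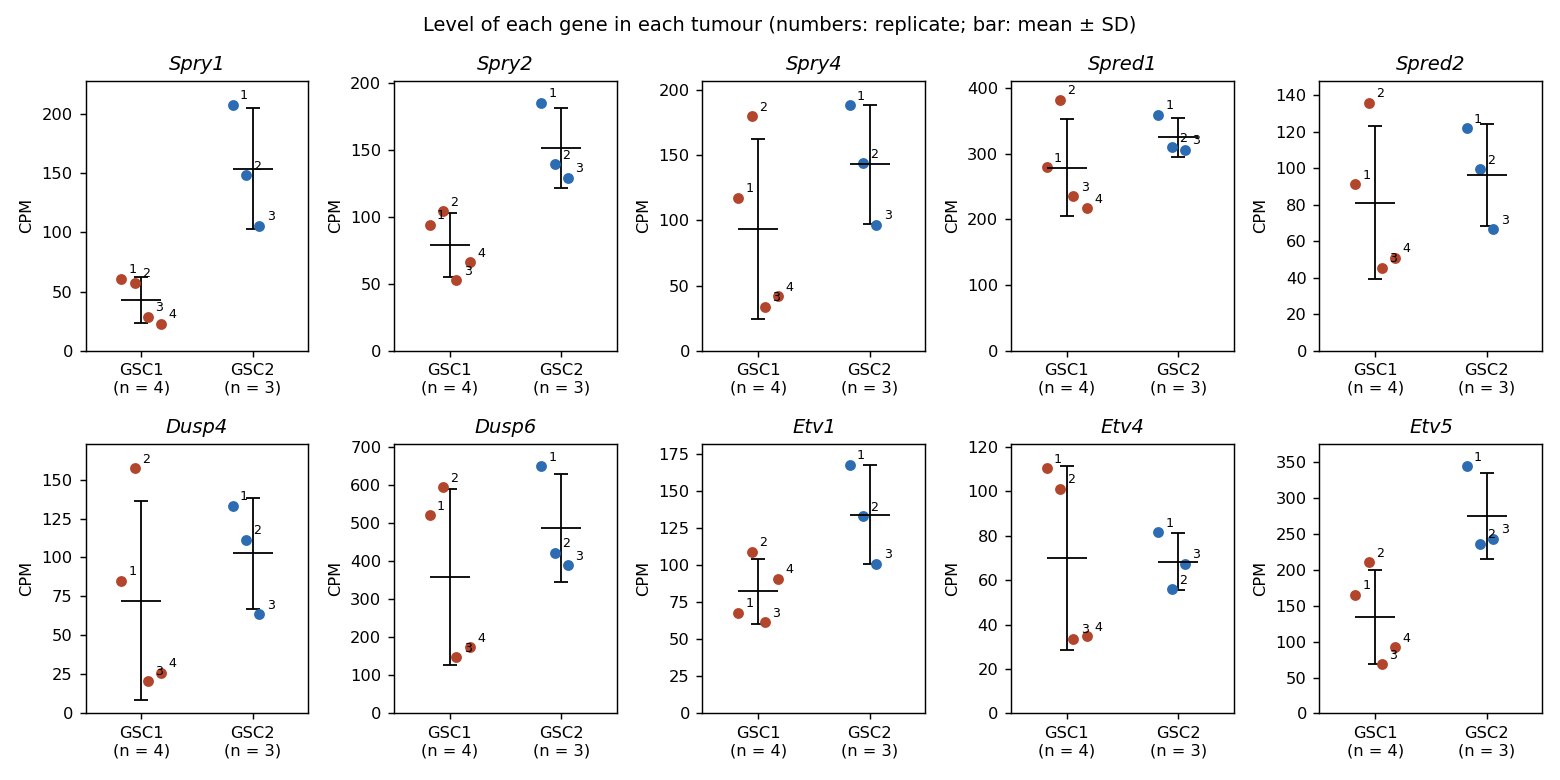
CPM of each gene in each tumour, with the replicate number beside each point and the mean ± SD as a bar (GSC1, n = 4, left; GSC2, n = 3, right). The GSC1 and GSC2 points do not overlap for Spry1, Spry2 and Etv5, and in all 10 panels the lowest point is GSC1 replicate 3 or 4.

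The ETS genes differed from one another. Etv5 had 166, 211, 68.4 and 92.2 CPM in the GSC1 tumours, against 344, 237 and 244 CPM in the GSC2 tumours, so that all GSC1 tumours were under all GSC2 tumours (log2 fold change -1.03, SE 0.41, edgeR unadjusted p = 0.0383, adjusted p = 1.00). Without the 3 libraries the Etv5 fold was -0.62 (SE 0.26), with an edgeR adjusted p of 0.324. Etv4 had 110.5, 101, 33.7 and 34.9 CPM in the GSC1 tumours, against 81.6, 56.0 and 67.4 CPM in the GSC2 tumours. Its GSC1 values lay on both sides of the GSC2 values, 2 tumours above and 2 below (log2 fold change 0.035, SE 0.49), and without the 3 libraries the fold was 0.63 (SE 0.26, edgeR adjusted p = 0.309).

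Etv1, which is also expressed by cerebellar granule cells and by projection neurons of the cortex, had 68.0, 109, 61.6 and 90.9 CPM in the GSC1 tumours, against 168, 133 and 101 CPM in the GSC2 tumours. Only GSC1 replicate 2 exceeded the lowest GSC2 tumour (log2 fold change -0.70, SE 0.29, edgeR unadjusted p = 0.0415, adjusted p = 1.00). GSC1 replicate 4, in which the other members were mostly near their lowest level, had the second highest Etv1 level of the GSC1 tumours. The 6 cerebellar granule cell markers summed to 36.5 to 939 CPM in GSC1 tumours, against 55.6 to 187 CPM in GSC2 tumours, with the maximum in GSC1 replicate 4. Cbln3 was at 245 CPM and Gabra6 at 115 CPM in that tumour. Cbln3 was at 0 in GSC1 replicate 1 and GSC2 replicate 1, and Gabra6 at 0 in GSC1 replicates 1 and 2 and in all GSC2 tumours. Their part in the Etv1 level was not tested.

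Over the 10 members, 9 had a negative fold, that is a lower level in GSC1, with a median log2 fold change of -0.56, against 46.3% of the 16068 genes tested and a median of 0.03 over them. Of the 10, 0 passed edgeR's quasi-likelihood test after Benjamini-Hochberg adjustment (background 0%), while 4 were lower in GSC1 at an unadjusted p under 0.05 (Spry1, Spry2, Etv1 and Etv5), a call that 2.32% of all genes met in that direction, 1.9% in the other and 4.21% in either. For 3 of the 10 all GSC1 tumours were under all GSC2 tumours, which held for 3.05% of all genes, and for 0 of the 10 were they all above, which held for 2.53%. DESeq2 called Spry1 alone among the members, where 0.548% of all genes were called lower in GSC1 and 1.19% in either direction, and limma-voom called 0 members and 0.00622% of all genes. The lowest tumour was GSC1 replicate 3 for 8 members and GSC1 replicate 4 for 2. Over all genes tested one of this pair was the lowest for 36.0%. Both were the lowest 2 tumours for 9 of the 10 members and for 20.8% of all genes. GSC2 replicate 1 was the highest tumour for 6 members, as for 12.6% of all genes, and GSC1 replicate 2 for 3, as for 23.4% of all genes.

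Summed over Spry1, Spry2 and Spry4, the Sprouty genes came to 273, 341, 115 and 131 CPM among GSC1 tumours and to 581, 432 and 331 CPM among GSC2 tumours. Only GSC1 replicate 2 exceeded the lowest GSC2 sum. The sums of Etv1, Etv4 and Etv5 came to 344, 421, 164 and 218 CPM among GSC1 tumours and to 594, 426 and 412 CPM among GSC2 tumours, with the same single overlap. The sums of Dusp4 and Dusp6 (605, 752, 169 and 199.6 CPM among GSC1 tumours, against 782, 533 and 453 CPM among GSC2 tumours) overlapped more widely. The sums of Spred1 and Spred2 were 371, 519, 281 and 269 CPM among GSC1 tumours, against 482, 409 and 373 CPM among GSC2 tumours. For these, only GSC1 replicate 2 exceeded the lowest GSC2 sum, and it lay above all GSC2 sums. No sum was tested.

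Ratios of 2 members within a tumour do not depend on how the library was scaled. Of 8 ratios within the families, 3 did not overlap between the lines, and over all pairs of tested genes 6.81% did not. Etv5 over Etv4 was 1.5, 2.08, 2.03 and 2.65 in the GSC1 tumours (replicates 1 to 4), against 4.22, 4.23 and 3.61 in the GSC2 tumours (replicates 1 to 3). The means were 2.07 ± 0.468 in GSC1 (SD, n = 4) and 4.02 ± 0.352 in GSC2 (SD, n = 3), and the values of replicates 3 and 4 lay among those of the other GSC1 tumours or above them. Spry1 over Spry2 was 0.647, 0.554, 0.545 and 0.347 in GSC1 and 1.12, 1.07 and 0.818 in GSC2. Spry1 over Spry4 was 0.520, 0.321, 0.855 and 0.548 in GSC1 and 1.10, 1.03 and 1.09 in GSC2. In both, Spry1 made up a smaller part beside its relatives in all 4 GSC1 tumours.

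The other 5 ratios overlapped. Dusp4 over Dusp6 was 0.18 ± 0.057 in GSC1 and 0.211 ± 0.0508 in GSC2, and Spred1 over Spred2 was 3.83 ± 1.10 in GSC1 and 3.55 ± 0.910 in GSC2 (SD, n = 4 and n = 3). Spry2 over Spry4 was 1.13 ± 0.517 in GSC1 and 1.10 ± 0.210 in GSC2. Etv1 over Etv4 was 1.53 ± 0.875 in GSC1 and 1.98 ± 0.443 in GSC2, and Etv5 over Etv1 was 1.62 ± 0.682 in GSC1 and 2.08 ± 0.316 in GSC2. Ratios do depend on how each library counted transcripts of different lengths. Spry4 (4755 bases), Etv5 (3975 bases) and Etv1 (6576 bases) have longer transcripts than Spry1 (2773 bases) and Etv4 (2395 bases).

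**Figure D3:**
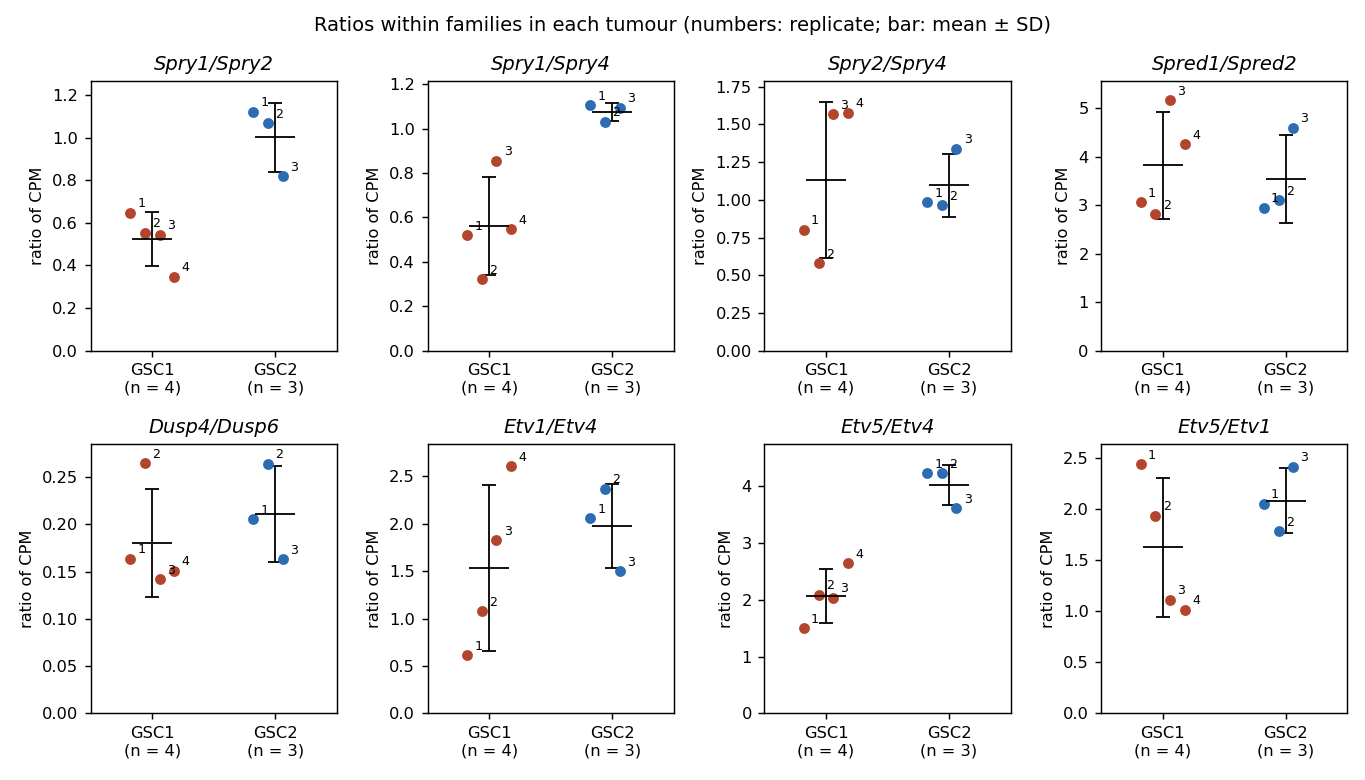
Ratio of the CPM of 2 genes of a family in each tumour, with the replicate number beside each point and the mean ± SD as a bar (GSC1, n = 4, left; GSC2, n = 3, right). The lines separate for Spry1/Spry2, Spry1/Spry4 and Etv5/Etv4 and overlap for the other 5 ratios.

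Most members were lower in tumours with more normal brain RNA. In a fit with line and brain score on all 16068 genes, 9 of the 10 members fell with the score, Etv1 being the exception, where 23.5% of all genes fell (edgeR quasi-likelihood test, adjusted p under 0.05). Per unit of score, Dusp4 fell by 0.74 on the log2 scale (SE 0.10, adjusted p = 0.00111), Spry4 by 0.63 (SE 0.08, adjusted p = 0.000923) and Dusp6 by 0.57 (SE 0.08, adjusted p = 0.00147). The slopes of the other members that passed were -0.48 for Etv4, -0.42 for Spred2, -0.41 for Etv5, -0.38 for Spry1, -0.26 for Spry2 and -0.19 for Spred1. That of Etv1 was -0.16 (SE 0.08, adjusted p = 0.142). Leaving out 1 tumour at a time gave 7 to 9 members that fell, where 12.9 to 24.3% of all genes fell, with a negative slope in 10 of 10 members each time. The count of 7, beside 12.9% of all genes, was without GSC1 replicate 3.

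Without the line in the relation, Pearson's r of the members with the score over the 7 tumours ranged from -0.27 for Spry1 to -0.86 for Etv4 (exact two-sided permutation p = 0.556 and p = 0.0141, adjusted over all genes 0.645 and 0.0535). Spearman's rho was -0.36 for Spry1 (exact permutation p = 0.444, adjusted p = 0.535) and -0.96 for Etv4 (exact permutation p = 0.00278, adjusted p = 0.0283). Of the 10 relations 0 passed by Pearson's r, where 3853 of the 16068 genes did, and 1, that of Etv4, passed by rho. The share of all genes that passed by rho was not counted, so that call has no background beside it. Leaving out GSC1 replicates 1 and 2, the tumours farthest from the median score, r was between -0.75 and -0.89 for all 10. The 2 GSC1 tumours then left had higher scores (8.68 and 8.14) than the 3 GSC2 tumours, so score and line cannot be told apart in that r. With values centred within each line r ranged from -0.64 for Etv1 to -0.98 for Etv5 (exact permutation p = 0.181 and p = 0.00694 over 144 arrangements, adjusted p = 0.263 and 0.0881), where 0.00694 is the smallest p these arrangements give and 0 of 16068 genes passed.

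**Figure D4:**
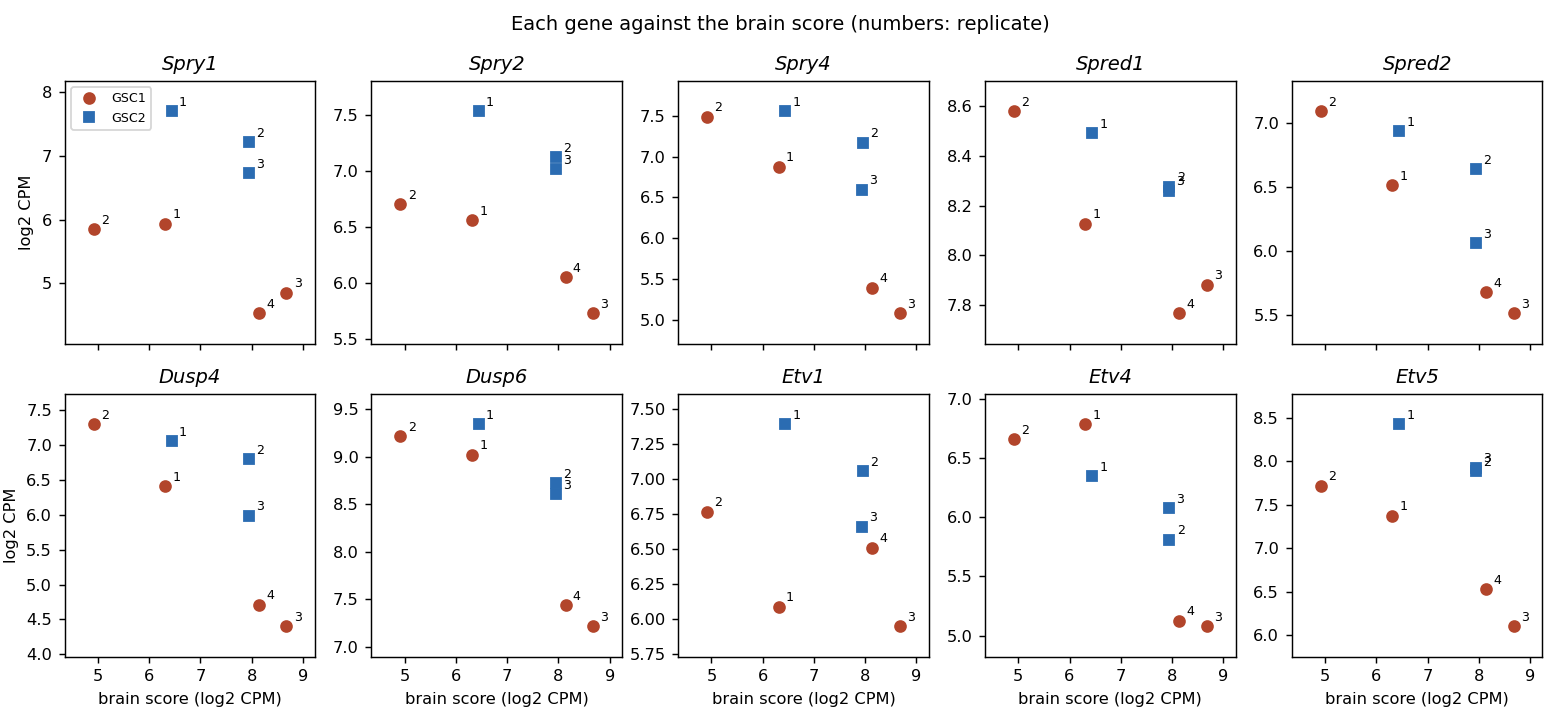
Log2 CPM of each gene against the brain score, the mean log2 CPM of neuron and mature oligodendrocyte markers, 1 point per tumour with its replicate number (GSC1 circles, GSC2 squares). GSC1 replicates 3 and 4, at scores of 8.68 and 8.14, are the lowest pair in all panels but Etv1, and in the Spry1, Spry2 and Etv5 panels the GSC2 squares lie above the GSC1 circles at any score.

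The marker lists behind the score, and others, also varied among the tumours. Neuron markers (10 of 10 detected, 0 at 0 in any tumour) summed to 499 to 4280 CPM in GSC1 tumours, against 863 to 2394 CPM in GSC2 tumours, and mature oligodendrocyte markers (10 of 10, 0 at 0) to 627 to 17316 CPM in GSC1 tumours, against 2567 to 8983 CPM in GSC2 tumours. Astrocyte markers (10 of 10, 0 at 0) summed to 1527 to 6013 CPM in GSC1 tumours, against 1363 to 3550 CPM in GSC2 tumours. Markers of dividing cells (6 of 6, 0 at 0) summed to 190 to 1361 CPM in GSC1 tumours, against 521 to 1148 CPM in GSC2 tumours, with mean log2 CPM of 6.96, 7.39, 4.56 and 5.09 in the GSC1 tumours (replicates 1 to 4), against 7.21, 6.45 and 5.95 in the GSC2 tumours (replicates 1 to 3). In bulk tissue a smaller share of tumour cells and less RNA of a gene per cell cannot be told apart. The part of these cells in the members' differences was not tested.

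At equal brain score 4 members were lower in GSC1, Spry1, Spry2, Spry4 and Etv5, where 0.778% of all genes were lower, 0.33% higher and 1.11% either (edgeR quasi-likelihood test with line and brain score). The log2 fold change of GSC1 over GSC2 was -2.07 for Spry1 (SE 0.23, adjusted p = 0.0166), -1.08 for Spry2 (SE 0.14, adjusted p = 0.0244), -1.19 for Spry4 (SE 0.20, adjusted p = 0.0431) and -1.33 for Etv5 (SE 0.15, adjusted p = 0.0166). Dusp4 (-1.28, SE 0.25, adjusted p = 0.0556) and Dusp6 (-0.90, SE 0.20, adjusted p = 0.0710) did not pass, nor did Etv1 (-0.77, SE 0.21, adjusted p = 0.118), Spred2 (-0.55, SE 0.17), Spred1 (-0.33, SE 0.15) and Etv4 (-0.34, SE 0.24, adjusted p = 0.480). The fold was negative in 10 of 10 members, against 54% of all genes. Since the score came from the tumours tested, this fit is not an independent test. The 4 members became 0 when replicate 2 or 3 of GSC1 was left out and also 0 when replicate 1 of GSC2 was. Over all genes those 3 fits called 6, 10 and 1. Leaving out replicate 4 of GSC1 gave 2 members, where 55 of 15823 genes were lower in GSC1. DESeq2 with the score gave 7 members, where 690 of 16068 genes were lower in GSC1 and 1272 passed in either direction. With the dividing cell score in place of the brain score, Spry1 (-1.64), Spry2 (-0.78) and Etv5 (-0.88) passed, and Spry4 did not (-0.46, SE 0.14, edgeR adjusted p = 0.136). Of the 16068 genes 372 passed in that fit, 246 of them lower in GSC1. The folds of Dusp4 (-0.39), Dusp6 (-0.28) and Spred2 (-0.06) were also closer to 0 in that fit.

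**Figure D5:**
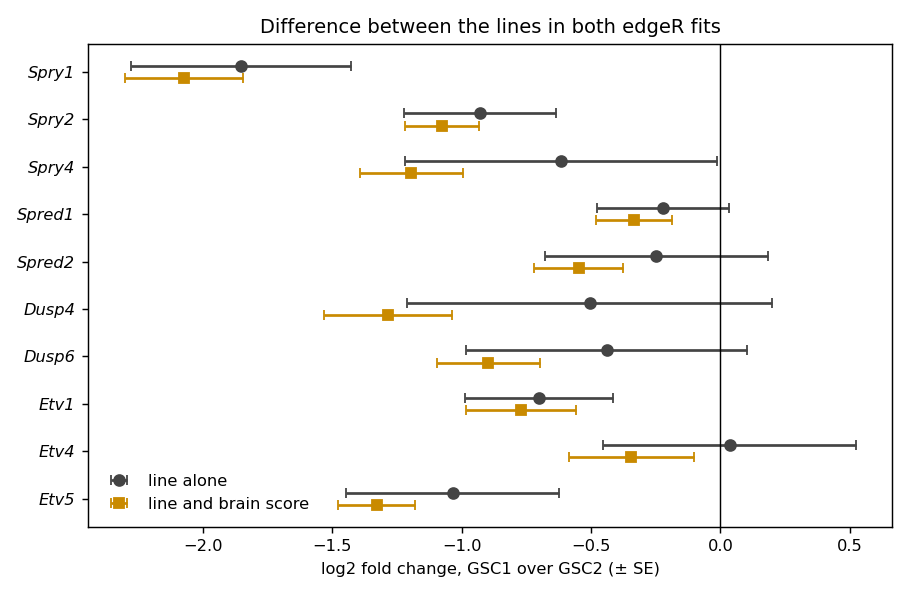
Log2 fold change of GSC1 over GSC2 (± SE) for each gene from edgeR fits with the line alone (circles) and with line and brain score (squares). With the line alone Etv4 lies at 0.035 and the other 9 genes below 0, and with the score all 10 lie below 0 with smaller errors.

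GSC1 replicate 1 and GSC2 replicate 1 had nearly equal brain scores, 6.31 and 6.44, and dividing cell scores of 6.96 and 7.21. Spry1 was at 61.0 CPM in the GSC1 tumour of this pair and at 208 CPM in the GSC2 tumour, Etv1 at 68.0 against 168 CPM and Etv5 at 166 against 344 CPM. Dusp6, at 519.9 against 648 CPM, and Spred1, at 279 against 360.0 CPM, were closer. Etv4 was at 110.5 CPM in the GSC1 tumour and at 81.6 CPM in the GSC2 tumour. GSC1 replicate 4 and GSC2 replicate 2 were also close, at brain scores of 8.14 and 7.95, with dividing cell scores of 5.09 and 6.45. Spry1 was at 22.9 CPM in this GSC1 tumour against 148 CPM in this GSC2 tumour. Etv1 was at 90.9 against 133 CPM and Etv5 at 92.2 against 237 CPM. Here Dusp6 (173 against 422 CPM), Spred1 (218 against 309.9 CPM) and Etv4 (34.9 against 56.0 CPM) were lower in the GSC1 tumour too. GSC2 replicate 3 had nearly the same brain score as GSC2 replicate 2, 7.94, and a dividing cell score of 5.95, nearer to that of GSC1 replicate 4. In it Spry1 was at 106 CPM, Etv1 at 101 CPM and Etv5 at 244 CPM. Dusp6 was at 389.8 CPM, Spred1 at 307 CPM and Etv4 at 67.4 CPM there. All of these are comparisons of single tumours, picked for their scores, and carry no test.

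None of the other pathway genes listed passed edgeR's test between the lines. Of 24 genes of the cascade itself, from adaptors and Ras to the ERK and RSK kinases, 0 passed edgeR's test and 0 had an unadjusted p under 0.05, with 13 negative folds and a median log2 fold change of -0.02. Ksr1, a scaffold for RAF and MEK, was at 18.5 ± 0.632 CPM in GSC1 (SD, n = 4) and 26.5 ± 5.38 CPM in GSC2 (SD, n = 3), and Mapk3, the gene for ERK1, at 203 ± 23.0 CPM in GSC1 tumours, against 155 ± 31.4 CPM in GSC2 tumours. Rps6ka1, a kinase gene downstream of ERK, averaged 45.1 ± 10.1 CPM in GSC1 tumours and 54.5 ± 4.06 CPM in GSC2 tumours. Of 10 other DUSP and Spred genes (Spry3 was also listed and is not analysed here) 0 passed, 4 had a negative fold and the median was 0.01. Dusp9, higher in GSC1, was the only one of them with an edgeR unadjusted p under 0.05. Dusp5, a nuclear ERK phosphatase gene that ERK also induces, had 116, 160.3, 19.4 and 69.0 CPM in the GSC1 tumours, against 33.2, 39.8 and 29.4 CPM in the GSC2 tumours (log2 fold change 1.42, SE 0.63, edgeR unadjusted p = 0.0580, adjusted p = 1.00). Dusp9 was at 2.02 ± 1.36 CPM in GSC1 tumours, against 0.540 ± 0.322 CPM in GSC2 tumours, and Dusp16 at 34.7 ± 6.12 CPM in GSC1 tumours, against 45.1 ± 10.7 CPM in GSC2 tumours.

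Of 21 other transcriptional outputs of ERK, 0 passed edgeR's test, 9 had a negative fold and the median log2 fold change was 0.10. Only Epha4, lower in GSC1, had an edgeR unadjusted p under 0.05 among them. Epha4, an Eph receptor gene, was at 21.5 ± 3.62 CPM in GSC1 tumours, against 69.6 ± 25.4 CPM in GSC2 tumours, with no overlap (log2 fold change -1.70, SE 0.31, edgeR adjusted p = 0.362, or 0.0345 at equal brain score, and DESeq2 adjusted p = 0.000720). Plaur, the urokinase receptor gene, was at 56.0 ± 41.3 CPM in GSC1 tumours, against 20.7 ± 1.11 CPM in GSC2 tumours, and the immediate early gene Fosb at 10.8 ± 7.32 CPM in GSC1 tumours, against 5.20 ± 2.04 CPM in GSC2 tumours. Of 16 other ETS factor genes 0 passed, 8 had a negative fold and the median was 0.00, with Ets2 at 74.0 ± 20.4 CPM in GSC1 tumours, against 52.2 ± 11.8 CPM in GSC2 tumours and Fli1 at 9.67 ± 1.20 CPM in GSC1 tumours, against 12.1 ± 2.81 CPM in GSC2 tumours. Ehf reached at most 0.714 CPM in a GSC1 tumour and 2.04 CPM in a GSC2 tumour. None of these other ETS genes had an edgeR unadjusted p under 0.05. Of 25 receptor kinase and growth factor genes 0 passed, 9 had a negative fold and the median was 0.09. At an edgeR unadjusted p under 0.05, 2 of them, Pdgfrb and Fgf18, were higher in GSC1, as were 1.9% of all genes. Neither overlapped between the lines. Pdgfrb, also a pericyte marker, was at 55.2 ± 11.6 CPM in GSC1 tumours, against 29.4 ± 8.56 CPM in GSC2 tumours. Fgf18 was at 2.73 ± 1.31 CPM in GSC1 tumours, against 0.698 ± 0.617 CPM in GSC2 tumours. Fgf2 was at 6.11 ± 2.37 CPM in GSC1 tumours, against 3.78 ± 0.383 CPM in GSC2 tumours.

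At equal brain score, negative folds were more frequent in these lists than with the line alone. The same held over all genes, with 54% negative at equal score and 46.3% with the line alone. They numbered 13 of 16 among the other ETS genes (median log2 fold change -0.29), 12 of 21 among the other ERK outputs (-0.26), 14 of 24 in the cascade (-0.06), 5 of 10 among the other DUSP and Spred genes (-0.04) and 12 of 25 among receptors and growth factors (0.02). Over the members the median was -0.99 and over all genes -0.04. Epha4 was the one gene of these lists that passed at equal score, where 1.11% of all genes passed in either direction.

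The genes whose pattern over the 7 tumours was most like the mean of the members' centred log2 CPM were Spata6, Cdc14a, Tcf4, Hectd2 and Lrrc8d. Their likeness to it, Pearson's r over 7 tumours taken as a description with no test, was 0.996, 0.995, 0.995, 0.994 and 0.992. Tcf4, a basic helix-loop-helix factor gene, had 405, 564, 178 and 211 CPM in the GSC1 tumours, against 738, 540.0 and 384 CPM in the GSC2 tumours. It was lowest in GSC1 replicate 3 and highest in GSC2 replicate 1. None of the 5 passed edgeR's test between the lines (adjusted p = 1.00 for each). At equal brain score Hectd2 (edgeR adjusted p = 0.0211), Cdc14a (adjusted p = 0.0375) and Tcf4 (adjusted p = 0.0431) were lower in GSC1. Spata6 and Lrrc8d did not pass, and 0.778% of all genes were lower in GSC1 in that fit. The 5 genes were picked for their likeness to the members over the same tumours, so these calls are no separate evidence about the members.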

How the data were processed

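Total RNA of 7 tumours (4 GSC1, 3 GSC2) was isolated with RNeasy Plus Mini columns and made into NEBNext Ultra libraries, per the labels' protocols. Each tumour has a deposited table of raw counts by Ensembl gene. Per the submitters' processing notes the authors used HTSeq and TopHat2 2.0.11, and builds mm9 and dm3 are named without their roles. Whether HTSeq counted by strand, and in which mode, is not given in the sources used here, and reads of a gene cannot be told apart from those of an antisense or overlapping gene. Reads on no gene (6.19 to 14.2% of reads listed), without a unique position (12.8 to 21.0%) and ambiguous (0.357 to 0.460%) were left out. Symbols and transcript lengths came from GENCODE M21.

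Counts were tested on the whole table in R 4.3.3 with edgeR 4.0.16 (TMM, filterByExpr, robust quasi-likelihood fit, Benjamini-Hochberg adjustment over 16068 genes, threshold 0.05), GSC1 over GSC2. CPM and RPKM were computed from the deposited counts, log2 CPM with a prior count of 2. Relations to the brain score were tested in Python 3.11.15, with p-values adjusted over all genes in place of the 10 members first intended. Alternatives were RLE and upper-quartile factors, other filters, DESeq2 1.42.0, limma-voom (limma 3.58.1), the replicate number as a block, the brain score, a loess offset on transcript length, fewer libraries, and each tumour left out. The edgeR slope on the score, the dividing cell score, the tools and offset combined with the score and the letters GGAA were added after seeing the data. No libraries were identical (smallest chi-square per degree of freedom 66.5). The edgeR fit on the line was tried on simulated counts without differences in brain content, and the correlation on 1 planted and 1 null relation. The other fits, those with the brain score among them, were not tried on simulated data. The labels call the tumours independent but do not name the mice. The text names all 10 members, label genes, the 3 genes per pathway list with the smallest p and the 5 genes most like the members, and some results are not reported here. P-values between the lines set a difference against the spread among tumours of the same line. They do not cover variation between separately made lines, since each set of changes existed in 1 line. The members and lists were chosen with earlier results of these data known.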

Additional observations from a re-analysis of the deposited data

Results flagged for a closer look

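Ehf, an epithelial ETS factor gene, was at 0.714 CPM in GSC1 replicate 4 and at 0.116 CPM or less in the other 3 GSC1 tumours. The gap from this tumour to the next took up 0.838 of the range of the group, more than Dixon's 95% limit for 4 values. It was 1 of 36 genes examined in this way, where chance alone gives about 5%, and its counts were between 0 and 40 reads in all tumours. None of the 10 feedback and ETS genes had a GSC1 tumour that far from the others.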

How the results depend on the processing

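Against 0 genes and 0 members in edgeR's fit on the line, DESeq2 called 192 genes and 1 member, limma-voom 1 gene and 0 members, the fit without a filter 1 gene and 0 members, the fit with the brain score 178 genes and 4 members, and the fit without GSC1 replicates 3 and 4 and GSC2 replicate 3 called 55 genes and 0 members. RLE and upper-quartile factors, a mean of at least 5 CPM, the length offset and each tumour left out gave 0 genes and 0 members. The replicate number as a block also gave 0 genes and 0 members. Same-numbered tumours paired for some numbers and not for all: the correlations of their deviations were 0.58, -0.31 and 0.41 (replicates 1 to 3). For 2 of these 3 numbers the GSC1 tumour was most like the GSC2 tumour of its number.

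The sign turned for Etv4, which was at 0.035, to -0.15 with limma-voom and -0.34 with the brain score, and it lay between -0.27 and 0.30 with 1 tumour left out, below 0 without replicate 1 or 2 of GSC1 or replicate 2 of GSC2. Spred2 turned to 0.038 and Dusp6 to 0.067 without the 3 libraries. The cause was not tested.

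At equal brain score the 178 genes and 4 members became 1272 and 7 with DESeq2, 327 and 6 with the length offset and 372 and 3 with the dividing cell score in place of the brain score, under which Spry4 no longer passed (-0.46) and Etv4 was at 0.15. Leaving out 1 tumour gave 1 to 188 genes and 0 to 4 members. Relations to the brain score passed for 0 members, for 1 with RLE factors, for 0 to 1 with 1 tumour left out and for 9 as a slope beside the line. With 4 and 3 tumours of unlike brain content, differences the size of those of Spred1 and Spred2 could not be told from the spread.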
